A study of Mus musculus with 8 samples.

Results

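GABA-A receptor subunit genes were followed in the dorsomedial hypothalamus (DMH) of mice after a hairpin against Ppp1r17, an inhibitor of protein phosphatases, and after a control hairpin. The members are 7 genes of the alpha, beta and gamma subunits, Gabra2, Gabra3, Gabra5, Gabrb1, Gabrb2, Gabrg1 and Gabrg3, found by symbol among 55487 Ensembl gene identifiers in each library. They are not the whole family: 5 other alpha, beta and gamma genes enter below as sums and counts. RNA was sequenced from 4 libraries labelled Ppp1r17 knockdown (shPpp1r17) and 4 labelled fLuc knockdown (shfLuc). By usual naming fLuc is firefly luciferase, which mice lack, so the controls carry a hairpin too. Nothing in the labels gives strain, age, sex, how the hairpins were delivered, or which cells took them up. It is also not stated whether the libraries stand for 8 animals, so the p-values describe variation among libraries, part of which may be technical.

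GABA-A receptors are pentameric chloride channels that open when GABA binds and carry most fast inhibition in the brain. GABA binds between a beta and an alpha subunit, and benzodiazepines bind between an alpha and a gamma subunit, so the mix of subunits sets where a receptor sits and which drugs act on it. The hypothalamus is rich in GABAergic neurons, and DMH circuits for feeding, arousal and body temperature receive strong inhibitory input.

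The library totals ran from 25637389 to 33907984 estimated reads in shPpp1r17 and from 23070147 to 25749643 in shfLuc. Levels in CPM are estimated reads per 1000000 after TMM scaling. Ppp1r17 stood at 87.7, 2.07, 3.10 and 87.2 CPM in shPpp1r17 1 to 4, and at 147 to 171 CPM in shfLuc, so its level differed widely among the shPpp1r17 libraries (log2 fold change -1.83, adjusted p = 0.197 in edgeR). Of 6 DMH marker genes, Ppp1r17 among them, 5 were tested and 0 passed, and their summed level was 105 to 243 CPM in shPpp1r17 and 306 to 346 CPM in shfLuc. Without Ppp1r17 it was 103 to 156 CPM in shPpp1r17 and 144 to 199 CPM in shfLuc, and the groups overlapped. Single markers differed in this: Brs3 had 34.1, 7.26, 8.47 and 29.4 CPM in shPpp1r17 1 to 4, against 39.3 to 51.1 CPM in shfLuc. Its log2 fold change was -1.18 (adjusted p = 0.0910 in edgeR). Hmx2 did not overlap either, at 3.67 to 5.67 CPM in shPpp1r17 and 6.09 to 7.61 CPM in shfLuc, while Npvf and Gpr50 overlapped. Both markers of the lateral hypothalamus, Hcrt and Pmch, were also present, at 872 to 1296 CPM in shPpp1r17 and 1122 to 1984 CPM in shfLuc. Markers of the paraventricular nucleus summed to at most 6.28 CPM in shPpp1r17 and 8.25 CPM in shfLuc, and those of the ventromedial nucleus to at most 8.75 and 11.8 CPM. Those of the arcuate nucleus summed to more, at 30.1 to 37.2 CPM in shPpp1r17 and 21.9 to 46.7 CPM in shfLuc.

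The members lie in 4 places of the genome (GENCODE M21 annotation of GRCm38, whose build may differ from the authors'). Gabrg1 (ENSMUSG00000001260, chromosome 5 minus strand, 70751047 to 70842617), Gabra2 (ENSMUSG00000000560, minus strand, 70957597 to 71095849) and Gabrb1 (ENSMUSG00000029212, plus strand, 71658113 to 72149037) belong to one cluster of subunit genes on chromosome 5. Gabrg3 (ENSMUSG00000055026, chromosome 7 minus strand, 56716465 to 57387188) and Gabra5 (ENSMUSG00000055078, minus strand, 57407672 to 57510059) lie side by side on chromosome 7. Gabrb2 (ENSMUSG00000007653) lies on the plus strand of chromosome 11 (42419757 to 42629028) and Gabra3 (ENSMUSG00000031343) on the minus strand of the X chromosome (72432681 to 72656848).

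The members' longest annotated 3' UTRs were searched for a short motif that had been picked in earlier work on these same libraries. The words searched were CTCTGAT and TCTGATA, which overlap in 6 of their 7 bases, on the strand of the mRNA. A match to either was held by 18.7% of the 14261 tested genes that have an annotated 3' UTR of at least 50 bases. Of the 7 members, 4 held a match: Gabra2, Gabrb1 and Gabrb2 held 1 each and Gabrg3 held 3. The sites are shown with the matched bases in capitals, 5′ to 3′ along the mRNA (GENCODE M21 transcripts, GRCm38).
Gabrb2, chr11:42628557-42628586, plus strand: tatacaattgaCTCTGATtggcctttacct
Gabrg3, chr7:56720603-56720632, minus strand: gacaggcccatCTCTGATctcccttctatt
Gabrg3, chr7:56717169-56717198, minus strand: gaccaggcttaTCTGATAtactgatagtac
Gabrg3, chr7:56716479-56716508, minus strand: atgtttgtactTCTGATAcaaataaatgca
Gabrb1, chr5:72144056-72144085, plus strand: aatcaaattggTCTGATAttttagatacag
Gabra2, chr5:70957948-70957977, minus strand: aggttggttgaCTCTGATgttttcttgtgg

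The 3' UTRs with a match were 2137 bases long in Gabrb2, 4205 in Gabra2, 7948 in Gabrg3 and 12228 in Gabrb1, against a median of 1225 bases over the genes searched. Those without one were 935 bases long in Gabra5, 1968 in Gabra3 and 2975 in Gabrg1. Holding a match did not go with one direction among the members: Gabrb2 and Gabrg3 were called lower, Gabrb1 and Gabra2 did not pass, and Gabra3 was called lower without a match. Since the motif was picked on these libraries, its presence in a member is a description. Its part in the members' levels was not tested.

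Levels were compared between genes in TPM, the deposited unit that takes gene length and library size into account. In shPpp1r17 the order of mean levels was Gabrg1 at 47.6 ± 3.06 TPM, Gabrb1 at 42.2 ± 3.35, Gabra3 at 31.3 ± 3.81, Gabra5 at 28.8 ± 3.73, Gabra2 at 24.8 ± 0.943, Gabrg3 at 13.8 ± 1.48 and Gabrb2 at 5.66 ± 0.809 TPM (SD, n = 4). The order was the same in shfLuc, with Gabrg1 at 51.1 ± 4.13 TPM, Gabrb1 at 46.1 ± 5.10, Gabra3 at 41.45 ± 4.996, Gabra5 at 37.65 ± 3.17, Gabra2 at 23.9 ± 1.39, Gabrg3 at 15.9 ± 1.33 and Gabrb2 at 11.2 ± 0.648 TPM (SD, n = 4). Neighbours among the 4 highest genes overlapped in shfLuc, as Gabrb1 was above Gabra3 and Gabra3 above Gabra5 in 3 of 4 libraries each. Below Gabra5 no neighbours overlapped in either group. Gabrg1, a gamma subunit found at high levels in few brain regions, had the highest mean, though its range overlapped that of Gabrb1 in both groups. Gabrb2 was the scarcest of the 7 in every library.

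**Figure D1:**
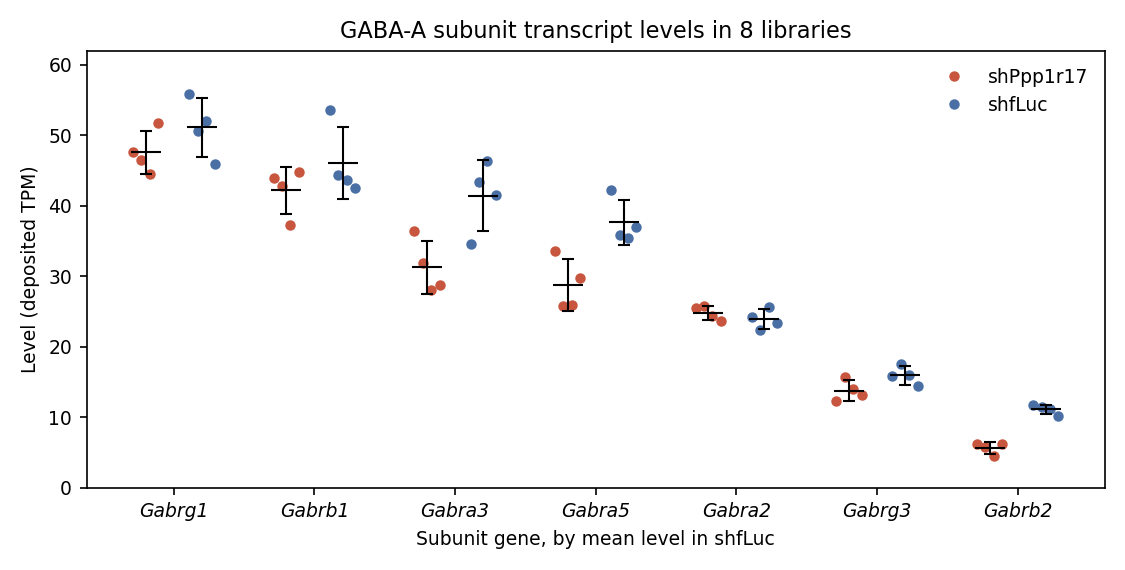
Deposited TPM of each subunit gene in every library (points), with the group mean and SD (bars, n = 4), shPpp1r17 left of shfLuc. Gabrb2, at 4.48 to 6.19 TPM in shPpp1r17 and 10.2 to 11.8 TPM in shfLuc, is lowest in both groups, and its groups stand apart.

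The summed level of the members was 205, 194, 179 and 198 TPM in shPpp1r17 1 to 4, against 238, 226, 230 and 215 TPM in shfLuc 1 to 4, with no overlap. The alpha members summed to 84.9 ± 7.44 TPM in shPpp1r17 and 103 ± 3.003 TPM in shfLuc, the beta members to 47.9 ± 4.15 and 57.2 ± 5.58 TPM, and the gamma members to 61.4 ± 2.81 and 67.1 ± 4.83 TPM (SD, n = 4). The 7 members made up 45.0% ± 0.978 of the TPM of all alpha, beta and gamma genes in shPpp1r17 and 44.2% ± 1.67 in shfLuc (SD, n = 4), so the 5 other genes held the larger part in both groups. In bulk tissue, fewer cells of a type and less RNA per cell cannot be told apart.

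Of the 7 members, 3 fell and 0 rose in edgeR's quasi-likelihood test at an adjusted p under 0.05, namely Gabrb2, Gabrg3 and Gabra3. Over all 17339 genes tested, 2.66% were called lower and 3.39% higher. The median log2 fold change (shPpp1r17 over shfLuc) was -0.29 over the 7 members and 0.00 over all genes tested, and 6 of the 7 lay below 0, against 49.4% of all genes tested. With the deposited effective lengths as an offset, 1 of the 7, Gabrb2, was called lower, against 2.13% of all genes, and without shPpp1r17 libraries 2 and 3 again Gabrb2 alone, against 0.061%. All 7 members passed the filter on low counts. Since the members were chosen with earlier results of these data known, their counts beside those of all genes are a description.

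Gabrb2, the beta2 subunit, which in much of the brain is a main partner in synaptic receptors, changed most. It had 19.1, 17.1, 13.3 and 17.7 CPM in shPpp1r17 1 to 4, from 488, 439, 365 and 603 reads, against 32.4, 29.7, 31.4 and 29.6 CPM in shfLuc 1 to 4, from 750, 696, 735 and 752 reads. Every shPpp1r17 library was below every shfLuc library, and the lowest was shPpp1r17 3. The mean in shPpp1r17 was 54.7% of that in shfLuc, a log2 fold change of -0.87 (SE 0.11, adjusted p = 0.00942 in edgeR). Relative to the shfLuc mean, the log2 change was -0.69, -0.84, -1.21 and -0.80 in shPpp1r17 1 to 4, so it was also present in libraries 1 and 4, where Ppp1r17 was only partly lowered. Without libraries 2 and 3 the log2 fold change was -0.75 (adjusted p = 0.0276). The call was lost without shfLuc 2 (adjusted p = 0.0505) and without shfLuc 3 (adjusted p = 0.0549), 2 fits in which edgeR called no gene at all.

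Gabrb1, the beta1 subunit, which neurons and astrocytes both carry, was the more abundant beta member. It had 238, 207, 211 and 235 CPM in shPpp1r17 1 to 4, against 262, 245, 259 and 266 CPM in shfLuc 1 to 4. The groups did not overlap, but the fold change of -0.21 (log2, SE 0.07) did not pass in edgeR (adjusted p = 0.0940). It passed in DESeq2 (log2 fold change -0.22, adjusted p = 0.0423), the 1 alternative of 20 that called it. Non-overlap with all shPpp1r17 libraries lower was found for 3 of the 7 members, Gabrb1, Gabrb2 and Gabrg3, and for 6.74% of all genes tested. Non-overlap with all of them higher was found for 0 of the 7 members and for 7.12% of all genes. With the deposited effective lengths as an offset the log2 fold change of Gabrb1 was -0.05 (adjusted p = 0.827). Its effective length was 6048 to 6864 bases in shPpp1r17 and 6279 to 8206 bases in shfLuc.

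The balance of both betas differed between the groups. Gabrb2 made up 12.3, 11.96, 10.7 and 12.1% of the summed TPM of Gabrb1 and Gabrb2 in shPpp1r17 1 to 4, against 18.0, 20.4, 20.5 and 19.4% in shfLuc 1 to 4. The difference of means was -7.79 percentage points, with no overlap. By exact two-sided permutation over the 4 and 4 libraries p was 0.0286, not adjusted, which is as small as this design allows. The ratio draws on the same Gabrb2 values whose groups stood apart above, so it is not a separate result. The difference was -5.98 points on counts over the mean effective length and -3.65 points on counts with no length, again without overlap between the groups. This ratio is taken within a library, so the scaling between libraries does not enter it, but the lengths used do.

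**Figure D2:**
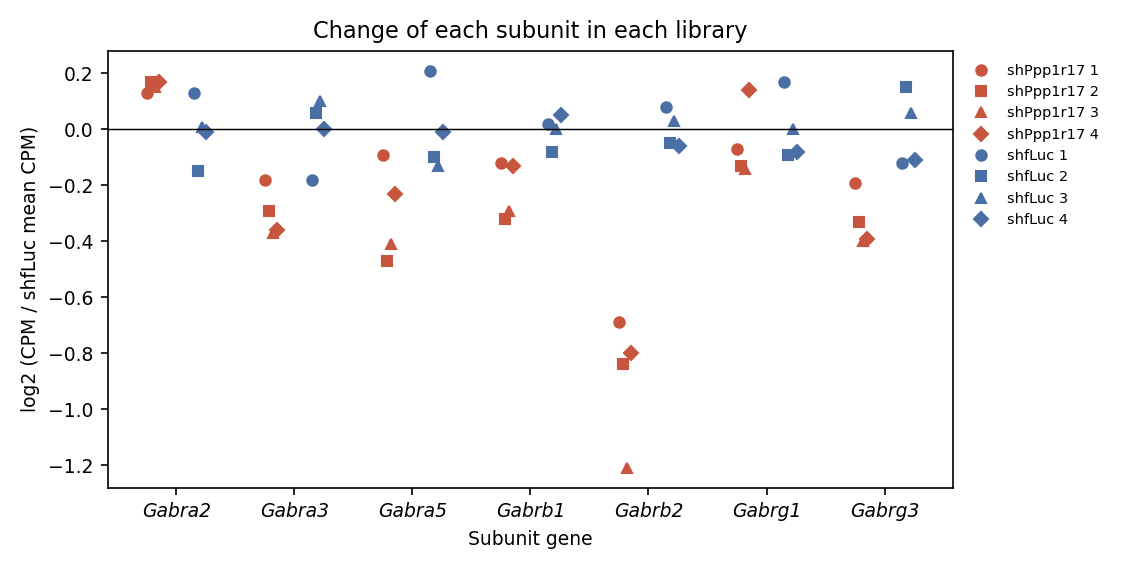
Change of each subunit gene in each library as log2 of its CPM over the mean CPM of shfLuc, shPpp1r17 left of shfLuc, with a symbol for each library number. Gabrb2 is the only gene with every shPpp1r17 library under -0.6, while the 4 Gabra2 points of shPpp1r17 lie between 0.13 and 0.17.

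Among the alpha members Gabra3 was called lower and Gabra2 and Gabra5 were not. Gabra3, the alpha3 subunit, known from monoamine neurons and the thalamic reticular nucleus, had 86.1, 80.0, 75.5 and 76.0 CPM in shPpp1r17 1 to 4, against 85.9, 102, 105 and 97.8 CPM in shfLuc 1 to 4. The groups overlapped, since shPpp1r17 1 was at the level of shfLuc 1. The log2 fold change was -0.30 (SE 0.08, adjusted p = 0.0497 in edgeR), at the edge of the threshold, and the call was lost in 12 of 20 alternative fits (adjusted p from 0.0129 to 0.281 over the 20).

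Gabra5, the alpha5 subunit of receptors that often sit outside synapses and carry tonic inhibition, had 61.8, 47.4, 49.6 and 56.1 CPM in shPpp1r17 1 to 4, against 76.1, 61.7, 60.3 and 65.6 CPM in shfLuc 1 to 4. In TPM the groups did not overlap, at 25.8 to 33.7 in shPpp1r17 and 35.4 to 42.3 in shfLuc. In CPM, libraries shPpp1r17 2 and 3 were lowest, while shPpp1r17 1 overlapped shfLuc. The log2 fold change of -0.29 (SE 0.10) did not pass in edgeR (adjusted p = 0.108). It passed only without shPpp1r17 1 among the 20 alternatives (adjusted p = 0.0455).

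Gabra2, the alpha2 subunit, which forebrain neurons place at synapses and on the axon initial segment, was the 1 member with a fold change above 0. It had 79.8, 82.4, 80.9 and 82.3 CPM in shPpp1r17 1 to 4, against 80.1, 65.7, 73.6 and 72.8 CPM in shfLuc 1 to 4. The shPpp1r17 libraries were close together, and shfLuc 1 lay among them. The log2 fold change of 0.15 (SE 0.08) did not pass in edgeR (adjusted p = 0.246) or in any of the 20 alternatives. Of the TPM of the 3 alpha members, Gabra2 made up 26.6, 30.9, 31.1 and 28.9% in shPpp1r17 1 to 4, against 24.0, 22.1, 23.9 and 22.9% in shfLuc 1 to 4. These shares did not overlap. The TPM of Gabra2 itself did, at 23.7 to 25.7 in shPpp1r17 and 22.4 to 25.7 in shfLuc. The mean TPM of Gabra3 and of Gabra5, which enter the same sum, was lower in shPpp1r17.

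Of the gamma members Gabrg3 was called lower and Gabrg1 was not. Gabrg3, the gamma3 subunit, a less common partner than other gamma subunits, had 44.8, 40.8, 38.8 and 39.2 CPM in shPpp1r17 1 to 4, against 47.0, 56.8, 53.5 and 47.5 CPM in shfLuc 1 to 4. The groups did not overlap, with a narrow gap between shPpp1r17 1 and shfLuc 1. The log2 fold change was -0.32 (SE 0.09, adjusted p = 0.0451 in edgeR).

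That call depended on how gene length was treated, and on the method and the libraries used. With the deposited effective lengths as an offset the log2 fold change of Gabrg3 was -0.13 (adjusted p = 0.505), and on log2(TPM + 1) with limma it was -0.20 (adjusted p = 0.281). Its effective length was 4562, 3242, 3374 and 3700 bases in shPpp1r17 1 to 4, and 3825, 4301, 4560 and 4328 bases in shfLuc 1 to 4. In TPM its groups overlapped, with 12.3 to 15.8 in shPpp1r17 and 14.4 to 17.6 in shfLuc. Over the 20 alternatives the call was lost in 13, some of which treated length as the reported fit did. Among these were limma voom (adjusted p = 0.0515) and edgeR with the replicate number as a block (adjusted p = 0.0867). Of the 8 fits with 1 library left out, 2 kept the call.

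Gabrg1, the gamma1 subunit, had 129, 123, 123 and 148 CPM in shPpp1r17 1 to 4, against 151, 126, 134 and 127 CPM in shfLuc 1 to 4. The groups overlapped widely. The log2 fold change was -0.05 (SE 0.09, adjusted p = 0.800 in edgeR), and its sign turned in 3 of the 20 alternatives.

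**Figure D3:**
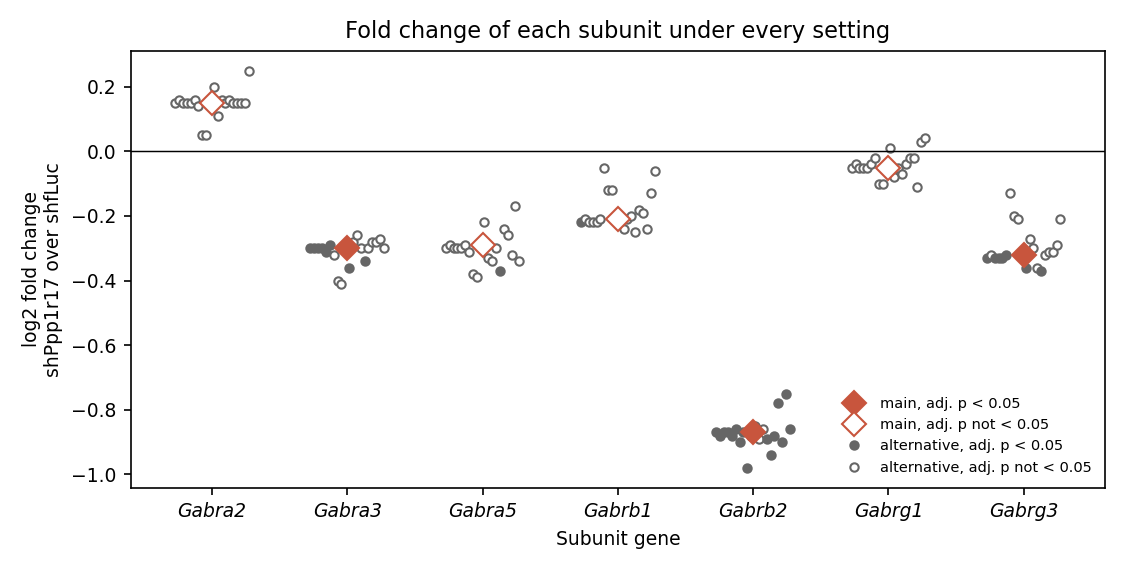
Log2 fold change (shPpp1r17 over shfLuc) of each subunit gene in the reported fit (diamonds) and in the 20 alternative fits (circles), filled where the adjusted p was under 0.05. Gabrb2 stays between -0.98 and -0.75, while the calls of Gabra3 and Gabrg3 come and go.

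The 7 genes were also read as a composition, each as a share of their summed TPM. Gabrb2 made up 2.91% ± 0.273 of their summed TPM in shPpp1r17 and 4.91% ± 0.121 in shfLuc (SD, n = 4). Gabra2 made up 12.8% ± 0.762 in shPpp1r17 and 10.5% ± 0.576 in shfLuc. For both the groups did not overlap, with an exact two-sided permutation p of 0.0286, or 0.1 after Benjamini-Hochberg adjustment over the 7 shares, so neither passed the correction. Gabrg1 made up 24.5% ± 1.29 in shPpp1r17 and 22.5% ± 0.869 in shfLuc (exact p = 0.0571, adjusted 0.133). The shares of Gabra3, Gabra5, Gabrb1 and Gabrg3 differed by -2.21, -1.76, 1.499 and 0.126 percentage points (exact p from 0.114 to 0.800). Shares of 1 library sum to 100%, so they are not independent.

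**Figure D4:**
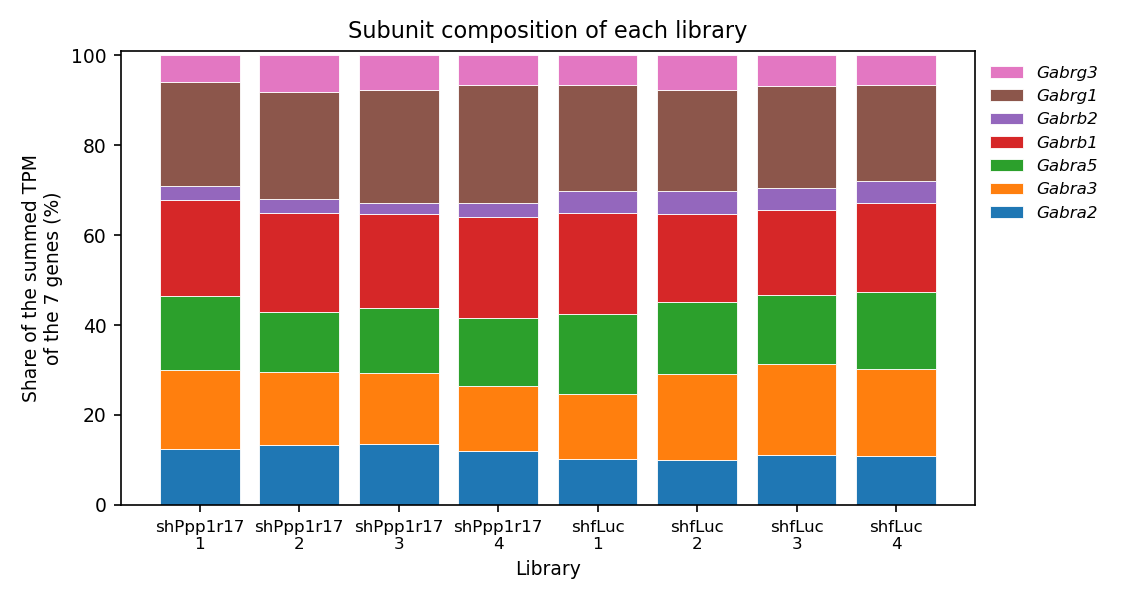
Share of each subunit gene in the summed TPM of the 7 genes, in percent, for every library, shPpp1r17 on the left. The Gabrb2 band is 2.51 to 3.13% in shPpp1r17 and 4.77 to 5.06% in shfLuc.

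Levels of cell type markers moved with the groups in part. For 6 markers of GABAergic neurons the summed level was 934 to 1090 CPM in shPpp1r17 and 1126 to 1181 CPM in shfLuc, all 6 fold changes lay below 0 and 0 passed. For glutamatergic neurons 2 of 3 markers were tested and 1 fell, Slc17a6, the main vesicular glutamate transporter of the hypothalamus, and the summed level was 153 to 183 CPM in shPpp1r17 and 202 to 219 CPM in shfLuc. The summed level of 8 markers of neurons as a class overlapped between groups, at 4469 to 4925 CPM in shPpp1r17 and 4482 to 4542 CPM in shfLuc, with 2 lower and 1 higher. Of 10 astrocyte markers 2 fell and 2 rose, with 2547 to 2810 CPM in shPpp1r17 and 2785 to 3075 CPM in shfLuc.

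Markers of other cells of the tissue mostly had fold changes above 0. This held for all 7 of oligodendrocytes, all 8 of microglia, all 5 of endothelial cells and 4 of 6 of oligodendrocyte precursors. The median log2 fold changes were 0.61, 0.44, 0.18 and 0.15. Over all genes tested 3.39% were called higher and 2.66% lower. Oligodendrocyte markers, 3 of 7 higher, summed to 1159 to 2112 CPM in shPpp1r17, highest in libraries 2 and 3, and to 1128 to 1173 CPM in shfLuc, so the ranges overlapped. Microglial markers, 3 of 8 higher, summed to 383 to 558 CPM in shPpp1r17 and 277 to 371 CPM in shfLuc, with no overlap. For endothelial cells 1 of 5 was higher, with 90.0 to 152 CPM in shPpp1r17 and 80.1 to 97.9 CPM in shfLuc, and for oligodendrocyte precursors 1 of 6 was lower, with 148 to 167 CPM in shPpp1r17 and 163 to 173 CPM in shfLuc. None of these markers was at 0 in all libraries. Their part in the subunit levels was not tested.

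Other genes of GABA signalling were read from the same fit. Of 12 further ionotropic GABA receptor genes, 8 were tested, 1 fell and 0 rose, with a median log2 fold change of -0.16. The X-linked Gabre, the epsilon subunit, averaged 49.0 ± 7.38 CPM in shPpp1r17 and 38.1 ± 2.55 CPM in shfLuc (SD, n = 4; log2 fold change 0.36, adjusted p = 0.0616 in edgeR). Gabrq, the theta subunit, averaged 161 ± 13.2 CPM in shPpp1r17 and 186 ± 13.3 CPM in shfLuc (-0.21, adjusted p = 0.134 in edgeR). Both are subunits that the hypothalamus is known to carry.

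The longest of these lists held scaffold and trafficking genes of inhibitory synapses. Of 24 tested, 5 fell and 1 rose, where 2.66% of all genes tested fell and 3.39% rose, and the list's median was -0.10. Gphn, which encodes gephyrin, the scaffold that anchors GABA-A and glycine receptors, averaged 49.1 ± 8.86 CPM in shPpp1r17 and 74.7 ± 4.16 CPM in shfLuc (SD, n = 4; log2 fold change -0.60, SE 0.11, adjusted p = 0.0133 in edgeR). Rdx, or radixin, which anchors alpha5 receptors to actin, had a log2 fold change of -0.43 (adjusted p = 0.0266), next to the Gabra5 value of -0.29 that did not pass. Lhfpl4, which ties receptors with a gamma subunit to neuroligin, fell (-0.34, adjusted p = 0.0368), and so did Ubqln1, an ubiquilin that stabilizes subunits (-0.33, adjusted p = 0.0325), and Dag1, dystroglycan (-0.40, adjusted p = 0.0380). Gabarap, which binds gamma subunits during transport and also serves autophagy, rose (0.33, adjusted p = 0.0285), at 336 ± 28.7 CPM in shPpp1r17 and 268 ± 16.7 CPM in shfLuc.

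Metabotropic and presynaptic genes were read in the same way, where 2.66% of all genes tested fell and 3.39% rose. Of 5 genes of GABA-B receptors and their auxiliary subunits 1 fell, Gabbr2, the subunit that couples to G proteins, with 44.7 ± 11.2 CPM in shPpp1r17 and 68.1 ± 6.61 CPM in shfLuc (SD, n = 4; log2 fold change -0.61, SE 0.15, adjusted p = 0.0337 in edgeR). Of the auxiliary genes Kctd16 stood at 0.14 and Kctd12 at -0.12, and neither passed. In synthesis, vesicle loading, uptake and breakdown of GABA 0 of 8 tested genes passed, with a median of -0.17. The astrocyte transporter Slc6a11 (-0.43, adjusted p = 0.0601) and the synthetic enzyme Gad2 (-0.21, adjusted p = 0.0683) had the smallest p-values.

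No chloride transport, glycine receptor or modulator gene passed, where 2.66% of all genes tested fell and 3.39% rose. Lists this short would hold few calls or none at those shares. Of 6 chloride genes the lowest p was that of Slc12a5, the neuronal chloride extruder that makes GABA inhibitory, with 69.1, 40.5, 47.9 and 80.6 CPM in shPpp1r17 1 to 4 and 81.9 to 89.9 CPM in shfLuc (log2 fold change -0.54, adjusted p = 0.0761 in edgeR). It was followed by the kinase Wnk3 at 0.09. Of 5 glycine receptor genes Glrb stood at -0.23 (adjusted p = 0.219), and Glra4 was under 1 CPM in every library. Of 3 modulator genes Srd5a1, an enzyme of neurosteroid synthesis, stood at -0.62 (adjusted p = 0.0586), and Dbi, which encodes the diazepam binding inhibitor, at 0.21 (adjusted p = 0.174).

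Across the 8 libraries, the genes with a pattern most like each member were sought among 9531 well expressed genes, by Pearson's r of log2 CPM. The values are descriptions: the libraries share group, depth and tissue makeup, and with 8 points many genes reach a high r. Rictor, Gng2 and Slc17a6 were most like Gabrb2 (r = 0.99, 0.98 and 0.98), and all 3 were called lower, by log2 fold changes of -0.30, -0.40 and -0.33. Atat1, Slc6a9 and Grik2 were most like Gabrb1 (0.99 each), and Tmem94, Ap3m2 and Supt7l most like Gabrg3 (0.99, 0.97 and 0.97). Rsf1, Pdp2 and Psip1 were most like Gabra3 (0.98, 0.98 and 0.97), and Prkcb, Rps6kb1 and Mdp1 most like Gabra5 (0.97 each). Ube2g2, Rnf121 and Abracl were most like Gabra2 (0.99, 0.98 and 0.94), and Rgs10, Prdx3 and Mboat7 most like Gabrg1 (0.94 each).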

How the data were processed

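Per the labels' protocols, RNA of 8 DMH samples went into a SMARTer library preparation. All 8 sample titles begin with LMD_DMH, where LMD by usual naming is laser microdissection. Tools named in the submitters' processing notes are DRAGEN, bcl2fastq, limma and edgeR. Build, annotation and strandedness are not given there. Estimated counts deposited by the authors (9.45 to 10.1% of genes fractional) were rounded. The TPM values deposited by the authors served for levels and shares. Symbols matched 55141 of 55487 identifiers.

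The main test was edgeR 4.0.16 (R 4.3.3), quasi-likelihood with TMM, minimum count 10, minimum total 15, the group as single term and Benjamini-Hochberg adjustment over 17339 genes. SE came from fold change and F. Shares had exact permutation tests (SciPy 1.17.1). Alternatives used limma 3.58.1 and DESeq2 1.42.0, among others. No library looked like a second deposit of another (chi-square over its degrees of freedom 7.34 to 40.6 between libraries of a group).

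The members, lists and motif were chosen with earlier results of these data known. Genes named were the members, Ppp1r17, genes past the threshold in each list or, with fewer than 2, up to 2 more of smallest p, and the 3 most correlated per member. Some of the genes so chosen are not reported here.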

Additional observations from a re-analysis of the deposited data

Results flagged for a closer look

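In 2 of 48 sets of 4 libraries tested, 1 library stood far from the other 3, by a gap of 0.833 and 0.836 of the range. Chance gives about 1 in 20. In both it was shfLuc 1. Gabrb1 stood at 53.6 TPM there, against 42.6 to 44.4 TPM in shfLuc 2 to 4, and Gabra3 made up 14.5% of the summed TPM of the 7 members there, against 19.2 to 20.1% in shfLuc 2 to 4. In CPM, Gabrb1 did not stand apart, at 262 in shfLuc 1 against 245, 259 and 266 in shfLuc 2 to 4. Its effective length was 6279 bases in shfLuc 1 and 7352 to 8206 bases in shfLuc 2 to 4.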

How the results depend on the processing

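Gabrb2 stayed lower in all 20 alternative fits (log2 fold change -0.98 to -0.75) and past the threshold in 18. The count of members called lower, 3 in the reported fit, was 1 (Gabrb2) with effective lengths as offset, on log2(TPM + 1), on log2(TPM + 0.1), with an offset that removed trends with length and GC (chosen after seeing the data), without shPpp1r17 libraries 2 and 3, and with the replicate number as a block. Leaving out 1 library gave 0 to 4 members lower, 0 to 706 genes lower and 0 to 842 genes higher. Without shfLuc 2 or shfLuc 3 edgeR called 0 genes (3309 and 3146 at an unadjusted p under 0.05), where the unadjusted p of Gabrb2 was 1.67e-05 and 2.29e-05.

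Over all genes, 462 lower and 588 higher in the reported fit, DESeq2 called 906 lower and 971 higher, limma on log2(TPM + 1) 488 lower and 309 higher, limma on log2(TPM + 0.1) 487 lower and 306 higher, the block 302 lower, and the fit without shPpp1r17 2 and 3 called 11 lower and 26 higher. The log2 fold change of Gabrg1 turned to 0.03 without shPpp1r17 2 and 3 and to 0.04 with the trend removed, and ran from -0.11 to 0.01 with single libraries left out. The share of Gabrb1 turned to -0.33 percentage points on counts over mean effective length and to -0.692 with no length, and that of Gabrg3, 0.126 points in the reported fit, to -0.658 and -0.667, to -0.708 without shPpp1r17 2 and 3, and to between -0.199 and 0.513 with single libraries left out, below 0 without shPpp1r17 2, shPpp1r17 3 or shfLuc 1. The cause was not tested.

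Same-numbered libraries showed no clear pairing: their deviations correlated by -0.00883 to 0.11, and 2 of 4 shPpp1r17 libraries correlated best with their own number. These values cannot exclude a pairing. Under the block Gabra3 had an adjusted p of 0.105 and Gabrg3 of 0.0867. Share tests with a library left out or with the pairing cannot reach 0.05. Gabrb2 had the fewest reads of the members, 365 to 752 a library.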
